A study of Mus musculus with 28 samples.

Results

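The NPAS factors and their ARNT partners are transcription factors of the bHLH-PAS family, and 6 of their genes, Npas1, Npas2, Npas3, Npas4, Arnt and Arnt2, were followed here. They were chosen by gene name, and all 6 were found among the 22919 genes of the comparison tables. Nascent RNA was measured by Bru-seq: bromouridine given to the living cells enters RNA as it is made, an antibody then pulls that RNA out for sequencing, and the reads report transcription during the label, over introns as well as exons. Forebrain cultures were made from CD1 mouse embryos at embryonic day 18, each replicate from pooled cortices and hippocampi of several embryos, and held neurons, astrocytes and oligodendrocyte precursor cells per the labels. All cultures, controls included, received a lentivirus on day in vitro 14 with a control hairpin RNA (shCtrl) or one directed at Rai1 (shRai1). On day 17 they received 4 hours of water as vehicle, of tetrodotoxin (TTX, 1 µM), which blocks sodium channels and silences the network, or of bicuculline (BIC, 20 µM), which blocks inhibitory transmission, with bromouridine (2 mM) in the last 20 minutes. The 16 libraries formed 6 groups of 3, except that shCtrl vehicle and shCtrl BIC had 2 each.

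Members of this family act in pairs. An NPAS factor binds DNA as a dimer with ARNT or ARNT2, or in the case of NPAS2 with BMAL1, the product of Arntl, and ARNT is also the partner of the hypoxia-inducible factors and of the dioxin receptor AHR. In neurons, Npas4 is an immediate early gene switched on by calcium entry, and its product acts on genes that shape inhibitory and excitatory synapses. Npas2 is a close relative of Clock, Npas1 and Npas3 are factors of neural development and of interneurons, and Arnt2 is the family partner typical of neurons.

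Calcium signals reach many activity-regulated promoters through the cAMP response element, so the start regions of the genes were read for it. RefSeq sequences (GRCm38.p6) of the window from 250 bases before to 50 bases after the start were available for all 6 genes. Those of Npas4 (chr19:4989922-4990221, minus strand), Arnt (chr3:95434140-95434439, plus strand) and Arnt2 (chr7:84409989-84410288, minus strand) are shown because they belong to the most activity-dependent gene and to the partner genes. Capitals mark the 6 letters TGACGT, the core of the element, on either strand.
Npas4: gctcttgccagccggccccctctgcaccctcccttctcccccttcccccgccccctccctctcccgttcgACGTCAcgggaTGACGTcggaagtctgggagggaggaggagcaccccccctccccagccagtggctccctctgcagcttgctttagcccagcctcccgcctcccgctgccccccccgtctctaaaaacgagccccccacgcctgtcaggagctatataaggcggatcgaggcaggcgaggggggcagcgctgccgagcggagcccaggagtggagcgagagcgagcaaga
Arnt: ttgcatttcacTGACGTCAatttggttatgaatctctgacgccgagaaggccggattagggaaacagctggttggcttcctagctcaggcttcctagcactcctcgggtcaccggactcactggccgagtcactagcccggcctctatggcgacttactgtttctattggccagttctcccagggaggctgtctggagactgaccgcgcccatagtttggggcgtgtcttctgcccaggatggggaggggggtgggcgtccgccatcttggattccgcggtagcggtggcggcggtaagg
Arnt2: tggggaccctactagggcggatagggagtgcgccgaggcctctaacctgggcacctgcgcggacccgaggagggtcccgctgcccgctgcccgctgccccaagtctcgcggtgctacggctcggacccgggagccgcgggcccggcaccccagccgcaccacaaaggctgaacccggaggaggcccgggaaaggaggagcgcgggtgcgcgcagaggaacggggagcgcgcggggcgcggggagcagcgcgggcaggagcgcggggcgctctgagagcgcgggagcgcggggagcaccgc

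The Npas4 window held 2 separate matches to TGACGT, 180 and 169 bases upstream of the start. The Arnt window held the full palindrome TGACGTCA, whose 2 overlapping TGACGT matches began 239 and 237 bases upstream. No match to TGACGT was found in the windows of Arnt2, Npas1, Npas2 or Npas3. Among 32851 mouse windows of the same length, 7.51% held TGACGT and 1.79% held TGACGTCA, on either strand. The E-box CACGTG, of which 7.15% of windows held a copy, was in none of the 6, and the core TCGTG of the NPAS4 site was in those of Npas1 and Npas2 and in 5269 of the 32851. A match describes these letters only, and binding at them was not measured here.

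Levels were compared between genes per length, as the authors' pooled FPKM over the full gene, with the bounds of their file. Npas4 is a short gene (chr19:4984355-4989971 in mm9, 5.62 kb), and in the shCtrl arm its FPKM was 928 in vehicle (603 to 1254), 50.0 with TTX (38.6 to 61.4) and 1382 with BIC (866 to 1897). The TTX interval lay below both of the others, and the vehicle and BIC intervals overlapped. Arnt2 (chr7:91394785-91558548, 164 kb) had an FPKM of 19.4 in vehicle (14.9 to 23.8), 15.1 with TTX (11.5 to 18.7) and 24.2 with BIC (18.7 to 29.7). Its TTX interval ended just below the start of its BIC interval, and vehicle overlapped both.

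Arnt (chr3:95238312-95301161, 62.9 kb) stood at 8.31 FPKM in vehicle (5.99 to 10.6), 9.79 with TTX (7.16 to 12.4) and 9.77 with BIC (7.12 to 12.4). Npas2 (chr1:39251117-39420085, 169 kb) stood at 8.21 FPKM in vehicle (5.90 to 10.5), 6.20 with TTX (4.31 to 8.10) and 8.89 with BIC (6.43 to 11.3). For both genes the 3 intervals overlapped. Npas3, spread over 823 kb (chr12:54349664-55173162), had 5.84 FPKM in vehicle (4.18 to 7.50), 6.13 with TTX (4.42 to 7.83) and 6.84 with BIC (4.99 to 8.69). Npas1 (chr7:17041070-17062129, 21.1 kb) was the lowest member, at 2.39 FPKM in vehicle (1.01 to 3.78), 2.39 with TTX (1.01 to 3.77) and 1.57 with BIC (0.495 to 2.65). None of the 6 genes overlaps another gene listed in the authors' table.

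The order Npas4, Arnt2, Arnt, Npas2, Npas3, Npas1 held by pooled FPKM in all 3 shCtrl conditions. In vehicle and BIC the intervals of Npas4, Arnt2 and Npas1 stood clear of every other member's, while those of Arnt, Npas2 and Npas3 overlapped and gave these 3 no order beyond their spread. In TTX the Arnt2 interval also met that of Arnt. The FPKM of Npas4 was 48.0 times that of Arnt2 in vehicle, 3.31 times in TTX and 57.0 times in BIC, so the 2 genes came closest in the silenced cultures. The FPKM of Arnt2 was 2.33 times that of Arnt in vehicle, 1.54 times in TTX and 2.48 times in BIC. These ratios compare nascent RNA per kilobase and say nothing of protein.

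**Figure D1:**
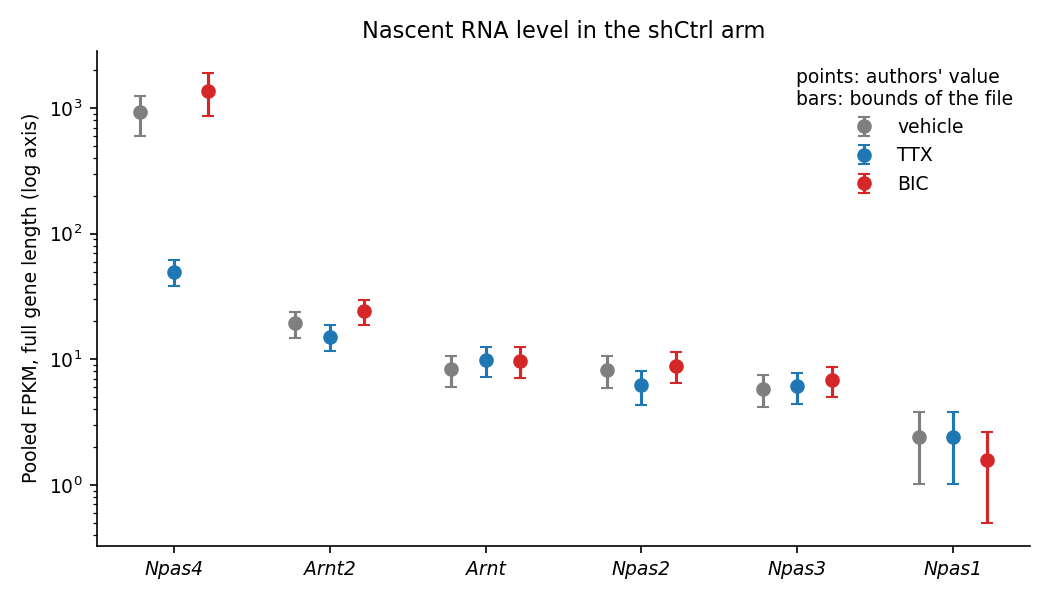
Pooled FPKM over the full gene (log axis) of the 6 genes in shCtrl vehicle, TTX and BIC; points are the authors' values and bars the bounds of their file. Npas4 fell from 928 in vehicle to 50.0 in TTX and still lay above every other member, and Npas1 was lowest throughout.

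The depth of single libraries is unknown, because the values are the authors' summaries over libraries. The mean normalized count over all libraries was 10541 for Npas4, 7274 for Npas3, 5303 for Arnt2, 2908 for Npas2, 1533 for Arnt and 31.1 for Npas1. Npas1 was also the least precisely measured member by the SE of its log2 changes, but the SE did not follow the count. Under TTX in shCtrl the SE was 0.29 for Npas1, 0.24 for Npas4 and 0.080 for Arnt. Nascent Rai1 itself did not fall detectably in the libraries labelled shRai1: the log2 changes in the authors' deposited tables were 0.16 in vehicle, -0.12 in TTX and 0.03 in BIC, with no call. It therefore gives no check of the arm labels, and directions between arms rest on those labels. Mature Rai1 RNA and RAI1 protein were not read here, so these values do not show how far the hairpin lowered them. In shCtrl vehicle the pooled FPKM of 7 neuron markers ran from 24.5 to 152, of 7 astrocyte markers from 5.68 to 81.7 and of 5 oligodendrocyte precursor markers from 3.12 to 70.9, whereas 4 endothelial markers reached at most 0.433. Markers of microglia, a cell type the labels do not name, ran from 0.0763 (Tmem119) to 14.7 (Cx3cr1). In such mixed cultures, fewer cells of a type and less RNA per cell cannot be told apart.

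Silencing by TTX was compared with vehicle in the control arm. A gene is called here where its adjusted p in the authors' deposited table is under 0.05. Of the 6 genes, 0 rose and 2 fell, against 26.7% of tested genes called in all, 11.8% higher and 14.9% lower. Npas4 had a log2 change of -3.92 (SE 0.24, adjusted p 6.58e-59) in the authors' deposited table, 15.1-fold lower (95% interval 11.0 to 20.9), and held rank 3 from the lowest of 15464 genes. Arnt2 fell much less, by 0.53 on the log2 scale (SE 0.087, adjusted p 1.57e-08), or 1.45-fold, in the authors' deposited table. Npas4 thus moved together with the partner gene that is typical of neurons, but on a far larger scale. The other partner, Arnt, had a change of 0.15 (SE 0.080, adjusted p 0.170) in the authors' deposited table, and its interval of -0.01 to 0.30 included no change. Npas2 (-0.13), Npas3 (-0.09) and Npas1 (0.19) likewise had no call in the authors' deposited table, with adjusted p-values of 0.453, 0.624 and 0.705.

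The same comparison in the shRai1 arm called 4 of the 6 genes, 1 higher and 3 lower, where the authors' deposited table called 30.5% of tested genes (13.7% as higher, 16.8% as lower). Npas4 fell by 3.24 (SE 0.21, adjusted p 6.00e-49), 9.43-fold lower (7.05 to 12.6), and held rank 4 from the lowest in the authors' deposited table. Arnt2 fell by 0.66 (SE 0.076, adjusted p 1.27e-16) in the authors' deposited table. Arnt moved the other way and rose by 0.29 (SE 0.070, adjusted p 0.000235) in the authors' deposited table. The fall of Npas2 by 0.25 (SE 0.098, adjusted p 0.0411) in the authors' deposited table was close to the threshold, and its adjusted p was 0.0560 over all genes with a p-value and 0.0501 after centring on the median gene. Averaged over both arms by a Wald test computed here, where 33.1% of genes were called, Npas4 fell by 3.58 (SE 0.16), Arnt2 fell by 0.60 (SE 0.058), Npas2 fell by 0.19 (SE 0.074, adjusted p 0.0373) and Arnt rose by 0.22 (SE 0.053, adjusted p 0.000210). Markers of cell types also moved. Under TTX in shCtrl, 1 of 7 neuron markers rose and 3 fell (median -0.12), 1 of 8 inhibitory neuron markers rose and 3 fell (median -0.18), and 0 of 7 astrocyte markers rose and 4 fell (median -0.21). In shRai1 the falls numbered 2, 4 and 1, with 1 astrocyte marker higher. Of 5 oligodendrocyte precursor markers 4 fell in shCtrl (median -0.70) and 4 rose in shRai1 (median 0.47). Summed over each list, the shCtrl level of the neuron markers went from 516 FPKM with vehicle to 465 with TTX and that of the precursor markers from 129 to 92.0, and the inhibitory neuron and astrocyte markers went from 480 to 383 and from 231 to 188, with no gene at 0. In the inhibitory sum Dlx1 went from 71.7 to 17.6 FPKM although its fitted change was 0.46, the 1 call higher in that list, and without it the sum went from 408 to 365. Their part in the values of the 6 genes was not tested.

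Bicuculline was compared with vehicle in the same way. In shCtrl, 3 of the 6 genes rose and 1 fell, where the authors' deposited table called 34.4% of tested genes (17.4% as higher, 17.0% as lower). Arnt2 rose most firmly, by 0.78 (SE 0.096, adjusted p 1.13e-14), or 1.72-fold, in the authors' deposited table. Npas2, the relative of Clock, rose by 0.47 (SE 0.12, adjusted p 0.000716), and Arnt rose by 0.26 (SE 0.089, adjusted p 0.0118), in the authors' deposited table. The change of Npas4 was 0.54 (SE 0.26, adjusted p 0.0907) in the authors' deposited table, a 1.45-fold higher level with an interval of 1.03 to 2.06, and did not pass. The member with the largest fall under TTX was therefore not called under BIC in the control arm, where each group had 2 libraries. Npas1 went down: its log2 change was -0.96 (SE 0.33, adjusted p 0.0115) in the authors' deposited table, 1.95-fold lower (1.25 to 3.03). Npas3 did not pass, with 0.06 (SE 0.12, adjusted p 0.763) in the authors' deposited table.

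In the shRai1 arm, with 3 libraries a group, 4 of the 6 genes rose and 1 fell under BIC, against 42.5% of tested genes called in the authors' deposited table, 21.3% in each direction. Here Npas4 rose by 1.44 (SE 0.21, adjusted p 1.33e-10) in the authors' deposited table, 2.71-fold (2.03 to 3.63). Arnt2 rose by 0.84 (SE 0.075, adjusted p 9.96e-28), Npas2 by 0.42 (SE 0.098, adjusted p 9.33e-05) and Arnt by 0.33 (SE 0.070, adjusted p 9.33e-06) in the authors' deposited table. For Arnt2, Npas2 and Arnt these values differed from those of the control arm by 0.06, -0.05 and 0.07. Npas1 fell by 0.98 (SE 0.29, adjusted p 0.00210) and Npas3 had no call (0.09, adjusted p 0.526) in the authors' deposited table. Averaged over arms by a Wald test computed here, which called 46.0% of genes, the rise was 0.99 for Npas4 (SE 0.17, adjusted p 1.62e-08), 0.81 for Arnt2 (SE 0.061), 0.44 for Npas2 (SE 0.079) and 0.30 for Arnt (SE 0.057), and Npas1 fell by 0.97 (SE 0.22, adjusted p 2.93e-05). Beside these rises, 4 of 7 neuron markers rose and 2 fell under BIC in each arm (median 0.44 in shCtrl and 0.70 in shRai1), and their summed shCtrl level went from 516 FPKM with vehicle to 697 with BIC. That sum rests on Nefl, a neurofilament gene, which went from 59.6 to 325 FPKM: without it the other 6 went from 456 to 372. Other markers called higher in both arms were the microglial Cx3cr1 (0.92 in shCtrl and 0.60 in shRai1) and the astrocytic Sox9 (0.62 and 1.02), and Csf1r reached 1.11 with a call in the control arm, per the authors' deposited tables. The other microglia markers with an adjusted p were not called, and of the other astrocyte markers Aqp4 was lower in shCtrl and Slc1a3 higher in shRai1. The astrocyte list as a whole had a median of -0.04 in shCtrl and 0.03 in shRai1, and its summed shCtrl level went from 231 to 199 FPKM, or from 195 to 148 without Sox9. Of 5 oligodendrocyte precursor markers 1 was called in shCtrl, Olig1 with -0.53, and 0 in shRai1, and their summed shCtrl level went from 129 to 108 FPKM. Of 4 endothelial markers with a test, Flt1 was called in shCtrl (0.95), at a level under 1 FPKM. The part of cell content in the rises was not tested. Of 8 markers of inhibitory neurons, 3 rose and 2 fell under BIC in shCtrl and 4 rose and 2 fell in shRai1. Summed over the 8 genes, the shCtrl level went from 480 FPKM with vehicle to 536 with BIC, with no gene at 0, but from 383 to 388 without Gad1 and from 433 to 450 without Gad2. Those that rose in both arms were Gad2 (1.47 in shCtrl and 1.61 in shRai1), Gad1 (0.73 and 0.85) and Slc32a1 (0.39 and 0.64), in the authors' deposited tables. The 2 that fell were Lhx6 (-0.85 in shCtrl and -0.73 in shRai1) and Dlx1 (-0.79 and -0.63) in the authors' deposited tables, and the part of inhibitory neurons in the fall of Npas1 was not tested.

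**Figure D2:**
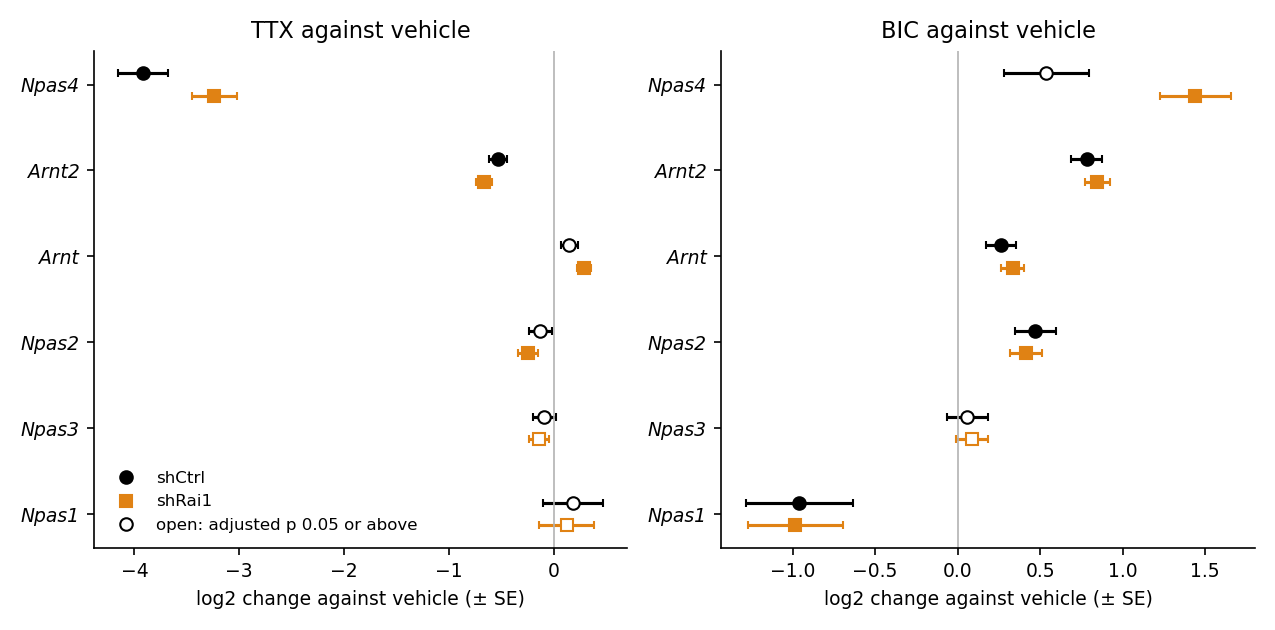
Log2 change against vehicle (± SE, from the authors' deposited tables) of the 6 genes under TTX, left, and BIC, right, in the shCtrl (circles) and shRai1 (squares) arms; filled symbols have an adjusted p under 0.05. Npas4 and Arnt2 lie left of 0 under TTX and right of it under BIC, Npas1 lies left under BIC, and Npas4 under BIC in shCtrl (0.54) is open; the horizontal scales of the panels differ.

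The size of the smaller changes depended on the measure. By the log2 ratio of pooled FPKM (pseudocount 0.1) in shCtrl, Npas4 changed by -4.21 under TTX and 0.57 under BIC, close to the fitted values. For Arnt2 the same ratio was -0.36 under TTX and 0.32 under BIC, for Npas2 it was -0.40 and 0.11, for Arnt 0.23 and 0.23, and for Npas1 and Npas3 under BIC -0.58 and 0.22. Directions matched the authors' comparison for these genes and drugs, and Npas1 and Npas3 under TTX had the other sign, near 0. The ratio differed from the fitted change by more than 1.5 times for Npas2 and Arnt under TTX and for Arnt2, Npas2, Npas1 and Npas3 under BIC.

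The ends of the activity range were set against each other as BIC against TTX, computed here with an error that is an upper bound. In shCtrl 4 of the 6 genes were called, where 32.4% of genes were, and in shRai1 also 4, where 39.5% were. Npas4 was higher in BIC than in TTX by 4.46 in shCtrl (SE 0.35, adjusted p 1.73e-35) and by 4.68 in shRai1 (SE 0.30, adjusted p 7.91e-52), a 22.0-fold and a 25.6-fold difference. It held ranks 13 and 10 from the highest of 18241 genes. Arnt2 was higher by 1.31 (SE 0.13) and 1.51 (SE 0.11), and Npas2 by 0.60 (SE 0.17) and 0.66 (SE 0.14). Npas1 was lower, with log2 changes of -1.15 in shCtrl (SE 0.43, adjusted p 0.0274) and -1.11 in shRai1 (SE 0.39, adjusted p 0.0130). Arnt was not called in either arm, with 0.11 (adjusted p 0.560) and 0.04 (adjusted p 0.814): in the averages over arms it was above vehicle under both drugs. Npas3 was not called either, with 0.15 and 0.22. Over the 6 groups the fitted log2 levels of Npas4 spanned 4.71, of Arnt2 1.51, of Npas1 1.23, of Npas2 0.78, of Arnt 0.33 and of Npas3 0.28.

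The knockdown arm was compared with the control arm within each treatment. None of the 6 genes was called by the authors' DESeq2 test in vehicle, TTX or BIC, where 0.857%, 0.0283% and 0.00944% of tested genes were called in the authors' deposited tables. The smallest unadjusted p of the 6 genes over these treatments was that of Npas4 in vehicle. Its log2 change there was -0.64 (SE 0.24, unadjusted p 0.00615, adjusted p 0.209), 1.56-fold lower (1.14 to 2.15), at rank 85 from the lowest of 14237 genes in the authors' deposited table. In TTX the Npas4 change was 0.04 (SE 0.22) and in BIC 0.26 (SE 0.24), both with an adjusted p of 1.00 in the authors' deposited tables. Relative to shCtrl vehicle, its fitted log2 level was thus -0.64 in shRai1 vehicle, -3.92 and -3.88 in TTX of the shCtrl and shRai1 arms, and 0.54 and 0.79 in BIC. The fitted Npas4 levels of the 2 arms lay farthest apart in vehicle, and under each drug they lay within 0.26 of each other. Beside the lower Npas4 value in vehicle, 4 of 5 oligodendrocyte precursor markers were lower (median -0.78) and 1 of 7 neuron markers, Rbfox3, was higher (0.24) while 0 were lower (median -0.18) in the authors' deposited table. All 7 astrocyte markers were below 0 with 0 called (median -0.25), and the part of these cell types in the Npas4 value was not tested.

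The other genes had smaller differences between arms in vehicle. In vehicle the log2 changes of Arnt2, Arnt, Npas2, Npas3 and Npas1 ran from -0.08 to 0.03 in the authors' deposited table. Their 95% intervals allowed, for Arnt2, a change of -0.13 to 0.20, and for Npas1, the rarest, of -0.62 to 0.51. In TTX Npas2 had the largest difference of the 6 relative to its error, -0.19 (SE 0.098, unadjusted p 0.0558, adjusted p 1.00) in the authors' deposited table. Averaged over treatments by a Wald test computed here, Npas2 was at -0.13 (SE 0.062, unadjusted p 0.0407, adjusted p 1.00) and Npas4 at -0.12 (SE 0.13, adjusted p 1.00), and 0 members were called, where 0.00548% of genes were.

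**Figure D3:**
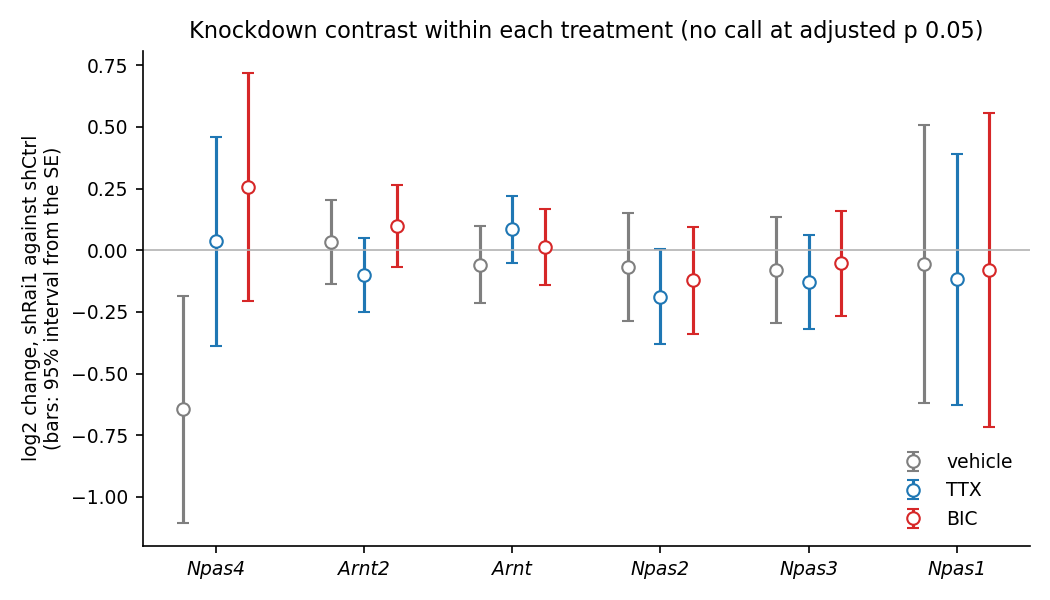
Log2 change of the 6 genes between the shRai1 and shCtrl arms in vehicle, TTX and BIC, with 95% intervals from the SE of the authors' deposited tables; no value has an adjusted p under 0.05. Npas4 in vehicle, at -0.64, is the only point whose interval leaves out 0.

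Whether the arms responded differently was tested as the difference of the responses, computed here. For TTX, 0 of 6 genes were called, where 0.943% of genes were, and for BIC 0 of 6, where 0.0219% were. In each, the smallest unadjusted p of the 6 genes was that of Npas4. Its TTX response was less negative in shRai1 by 0.68 (SE 0.32, unadjusted p 0.0331, adjusted p 0.468), and its BIC response was larger by 0.90 (SE 0.33, unadjusted p 0.00681, adjusted p 1.00). Both differences rest on the same vehicle libraries of the 2 arms, and neither passed. A call of Npas4 under BIC in shRai1 and not in shCtrl is therefore no shown difference. In the TTX response difference, 5 of 5 oligodendrocyte precursor markers were called above 0 (median 1.16). Of 7 neuron markers 1 was called below 0 (median 0.07), and of 7 astrocyte markers 0 were called (median 0.18). In the BIC response difference 0 markers of these lists were called. The part of these cell types in the Npas4 values was not tested. For Arnt2 the response differences were -0.13 (95% interval -0.36 to 0.09) for TTX and 0.06 (-0.18 to 0.30) for BIC, and for Arnt 0.14 (-0.06 to 0.35) and 0.07 (-0.15 to 0.29).

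Genes whose fitted levels ran most like those of a member were found by Euclidean distance over the 6 groups, each gene centred on its mean. The nearest to Npas4 were Pthlh (distance 0.508), which encodes parathyroid hormone-like hormone, the neuropeptide gene Nts (0.970), the proton pump gene Atp12a (0.982), Rgs2 (1.30), a regulator of G-protein signalling, and Nptx2 (1.32), which encodes a secreted synaptic pentraxin. The median distance over 12332 genes was 4.84. Pthlh followed Npas4 closely in TTX (fitted levels of -3.55 in shCtrl and -3.61 in shRai1, relative to shCtrl vehicle) and stood higher in shCtrl BIC (1.20). Nearest to Arnt2 were Pak7 (0.0715), Maml3 and Eprs (0.104), with a median of 1.47, and nearest to Npas1 were Wwc1 (0.0832), Foxp2 (0.102) and Mtus2 (0.110), with a median of 1.24. When each gene was divided by the SD of its levels, 0 of the 5 genes near Npas4, 1 of the 3 near Arnt2 (Pak7) and 0 of the 3 near Npas1 were still among the nearest, so which genes were nearest depended on keeping the size of the change in the measure. These neighbours and 6 known NPAS4 target genes came to 16 genes, of which 13 were matched to 20 start windows (all but Atp12a, Foxp2 and Nptx2). TGACGT was in 4 of the 20, beside 7.51% of all 32851 windows: those of Plk2, Eprs and Rgs2 and 1 of the 7 of Bdnf, and not in those of Pthlh and Nts, the 2 genes nearest Npas4, or of the other 7 genes.

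**Figure D4:**
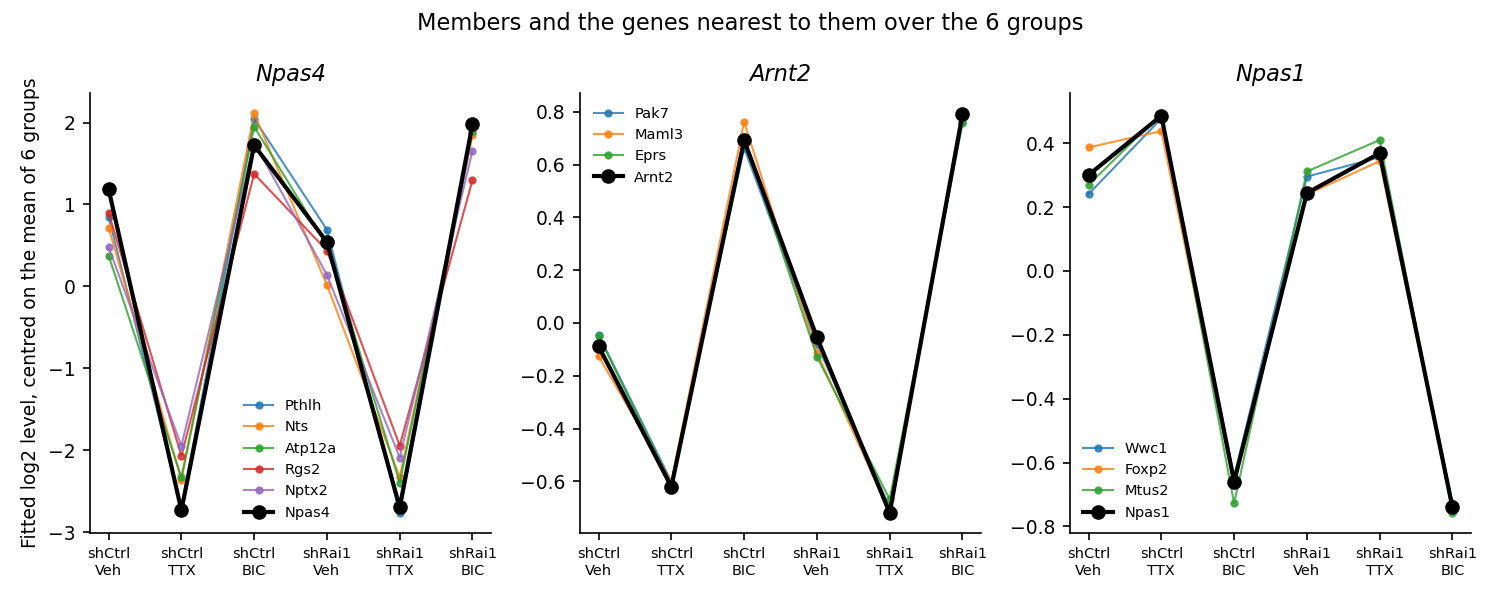
Fitted log2 levels over the 6 groups, centred on their mean, for Npas4, Arnt2 and Npas1 (black) and their nearest genes (colours), built from the authors' log2 changes. Npas4 and Arnt2 are lowest in TTX and highest in BIC in both arms and Npas1 is lowest in BIC; the vertical scales of the panels differ.

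Downstream of the NPAS4 and ARNT2 pair, 6 known neuronal target genes of NPAS4 were read: Bdnf, Nptx2, Plk2, Syt10, Frmpd3 and Mdm2. For this and the lists that follow, the background in shCtrl is again 26.7% of tested genes called under TTX and 34.4% under BIC, and in shRai1 30.5% and 42.5%. In shCtrl, 4 of 6 fell and 0 rose under TTX (median -1.08, against 0.00 over all tested genes), and 6 of 6 rose under BIC (median 1.34, against -0.02). Nptx2 changed by -2.43 under TTX and 1.28 under BIC in the authors' deposited tables. Bdnf, a growth factor for synapses, changed by -2.12 and 1.41, and Plk2, a kinase that scales synapses down, by -1.01 and 1.63, in the authors' deposited tables. In shRai1, 4 fell and 1 rose under TTX (median -0.67) and 6 rose under BIC (median 1.43). Between arms, Plk2 was the 1 target called, lower in shRai1 vehicle by a log2 change of -0.43 (adjusted p 0.00314), in the authors' deposited table. There 0.857% of tested genes were called. In TTX and BIC 0 targets were called, where 0.0283% and 0.00944% of genes were. In vehicle, Bdnf (-0.35, adjusted p 0.238) and Nptx2 (-0.34, adjusted p 0.184) did not pass in the authors' deposited table. In the same comparison 4 of 5 oligodendrocyte precursor markers were lower (median -0.78), and their part was not tested. The difference of the TTX responses was above 0 for 1 of the 6 targets at an adjusted p under 0.05, where 0.943% of genes were called.

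Cofactors of the pair were read as 11 genes, among them subunits of the NCoR corepressor and of the NuA4 acetyltransferase complex. Under TTX in shCtrl 1 rose and 3 fell (median -0.07), and under BIC 0 rose and 4 fell (median -0.11); in shRai1 the counts were 1 and 3 under TTX and 1 and 6 under BIC. In shCtrl the share called was 36.4% under either drug, near the 34.4% of all tested genes under BIC and above the 26.7% under TTX by about 1 gene of 11. In shRai1 it was 36.4% under TTX and 63.6% under BIC, against 30.5% and 42.5% of all tested genes. The NCoR subunit genes Tbl1xr1 and Tbl1x changed by -0.68 and -0.69 under BIC in shCtrl and by -0.64 and -0.66 in shRai1, in the authors' deposited tables. Under TTX in shCtrl they did not pass, with -0.07 and -0.03, and in shRai1 Tbl1xr1 rose by 0.17 (adjusted p 0.0393), the 1 rise in the list, while Tbl1x was at 0.09 with no call, in the authors' deposited tables. Etl4 changed in shCtrl by -0.98 under TTX and -0.43 under BIC, per the authors' deposited tables, and so was lower under both drugs.

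Among 13 other bHLH-PAS genes, 12 had an adjusted p in shCtrl, of which 1 rose and 3 fell under TTX (median over 13 of 0.00) and 5 rose and 2 fell under BIC (median 0.24). The share called was 33.3% under TTX and 58.3% under BIC, against 26.7% and 34.4% of all tested genes, so the TTX count was near the background. In shRai1, 1 rose and 3 fell under TTX, and 7 rose and 2 fell under BIC. There 33.3% and 69.2% of those with an adjusted p were called, against 30.5% and 42.5% of all tested genes. Ahr, the dioxin receptor and a partner of ARNT, changed in shCtrl by -0.47 under TTX and 1.21 under BIC, per the authors' deposited tables. Sim1, a factor of hypothalamic development, rose by 1.36 under BIC in shCtrl and had 0.09 under TTX, which did not pass, in the authors' deposited tables. Arntl, the clock partner of NPAS2, fell by 0.37 under TTX in shCtrl and had 0.10 under BIC, which did not pass, in the authors' deposited tables.

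The genes that ARNT serves with other partners were read as hypoxia and AHR targets. Of 16 hypoxia targets, 5 rose and 7 fell under TTX in shCtrl (median -0.14), and 6 rose and 6 fell under BIC (median -0.02). These are 75.0% called under either drug, against 26.7% and 34.4% of all tested genes. In shRai1, 3 rose and 6 fell under TTX (median -0.17), and 7 rose and 5 fell under BIC (median 0.07). There 56.2% were called under TTX and 75.0% under BIC, against 30.5% and 42.5% of all tested genes. P4ha1, a collagen hydroxylase, fell by 0.98 and the glucose transporter gene Slc2a1 fell by 1.35 under TTX, whereas Ndrg1 rose by 1.52, in the authors' deposited table for shCtrl. Of 5 AHR targets, 2 fell under TTX and 2 rose under BIC in shCtrl, 50.0% and 40.0% of those with an adjusted p, against 26.7% and 34.4% of all tested genes, so the BIC count was near the background. They were Tiparp with -1.16 and 0.49, and Ahrr, the AHR repressor, with -0.95 and 0.97, in the authors' deposited tables. The pooled shCtrl FPKM of Ahrr was low and showed no fall under TTX. It was 0.452 in vehicle, 0.457 with TTX and 0.565 with BIC. Cyp1b1 had no call under either drug, with 0.42 and 0.48 in the authors' deposited tables. In shRai1, 2 AHR targets fell under TTX and 2 rose under BIC, 50.0% and 40.0% of those with an adjusted p. The shares over all tested genes there were 30.5% and 42.5%.

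The E-box genes of the clock, which NPAS2 and CLOCK serve with BMAL1, were read last. Of 13, 6 rose and 3 fell under TTX in shCtrl (median 0.23), and 2 rose and 8 fell under BIC (median -0.70), the drug under which Npas2 rose. The share called was 69.2% under TTX and 76.9% under BIC, against 26.7% and 34.4% of all tested genes. Hlf changed by 0.70 under TTX and -1.16 under BIC, and Nr1d2 by 0.23 and -1.01, in the authors' deposited tables for shCtrl. Per1 went the other way under TTX, with -1.42, and did not pass under BIC, with -0.31, in the authors' deposited tables. Per2 and Cry1 were called the other way under both drugs. Per2 changed by -0.76 under TTX and 0.62 under BIC, and Cry1 by -0.51 and 0.93, in the authors' deposited tables for shCtrl. In shRai1 the counts were 5 up and 5 down under TTX and 2 up and 7 down under BIC. Between arms, Per2 was higher in shRai1 vehicle (0.46, adjusted p 0.00600) and Cry1 lower in shRai1 TTX (-0.55, adjusted p 0.000128) in the authors' deposited tables. Each was the 1 clock gene called there, where 0.857% and 0.0283% of tested genes were called. The TTX response difference was called below 0 for 3 of the 13, where 0.943% of genes were called.

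**Figure D5:**
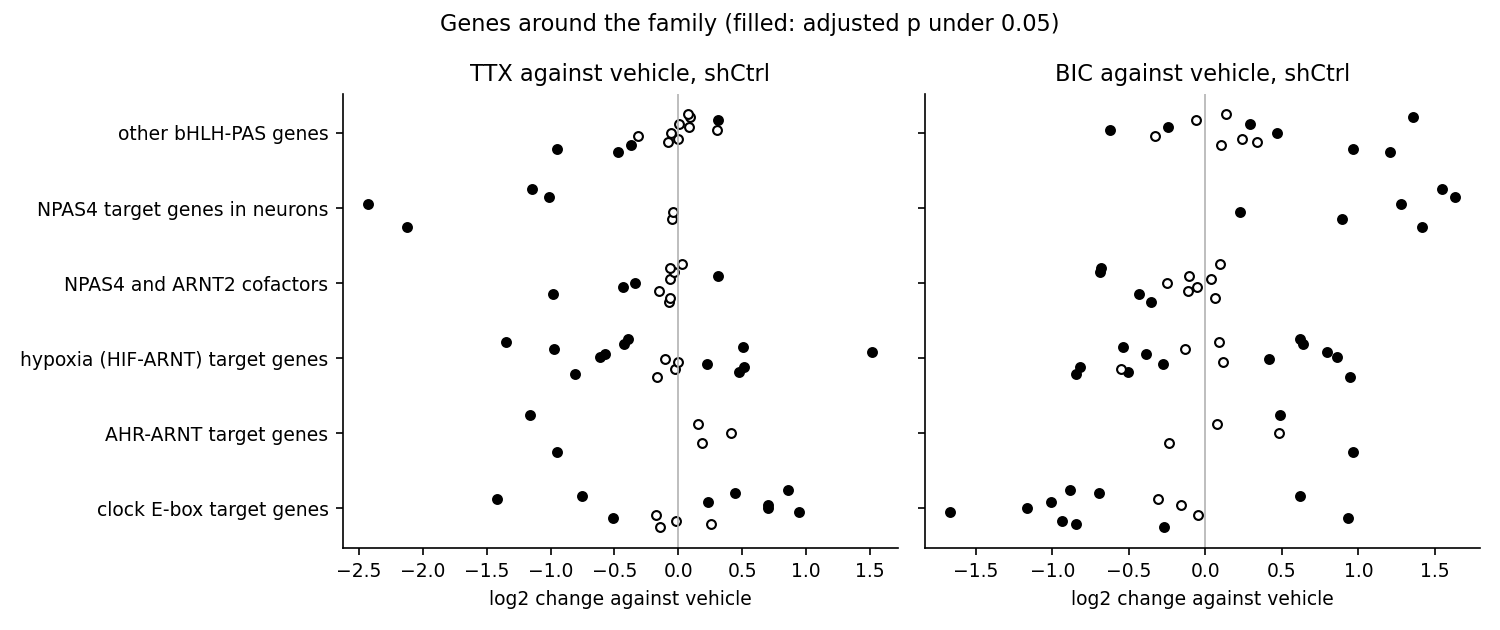
Log2 change under TTX, left, and BIC, right, in shCtrl for the genes of the 6 lists around the family, 1 point per gene from the authors' deposited tables; filled points have an adjusted p under 0.05. The NPAS4 targets lie left of 0 or near it under TTX and right of it under BIC (median -1.08 and 1.34), and the clock genes mostly the reverse (0.23 and -0.70).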

How the data were processed

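Nascent RNA was measured by Bru-seq in 16 libraries, in 6 groups that the sample labels give. RAI1 ChIP-seq of 12 samples was not analysed here. The submitters' processing notes name TopHat2 2.1.0, Bowtie2 2.2.6, DESeq2 and the mouse build mm9. Per the file headers, each of the 7 comparison tables the authors deposited holds a mean normalized count (a scaled signal averaged over all libraries), a log2 change with its standard error, a Wald score and p-values before and after adjustment. The authors' log2 changes are shrunken for low counts: among genes with a mean under 1 the largest absolute value is 0.79. The authors' FPKM table gives 1 pooled value with bounds per condition over the full gene, per the file headers, so replicates cannot be separated and the depth of single libraries is unknown.

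The members' rows were read out of each whole table with the authors' adjusted p, and a call is an adjusted p under 0.05. In the vehicle knockdown table gene names are lacking, and 20107 genes were identified by a unique mean count shared with the other tables, checked by log2 changes that sum to 0 around each loop within 1e-09. FPKM columns of the knockdown arm served in the mean over the 6 conditions and in no comparison of the report, because by name they differ from the comparison tables. The closing observations give values or ratios from them for the 6 genes. Response differences, averages and BIC against TTX were derived here from the log2 changes and errors of those tables, with two-sided Wald tests and Benjamini-Hochberg adjustment over the 18241 named genes whose mean FPKM was 0.1 or more, and the method was tested on simulated data. For BIC against TTX the vehicle error is counted although it cancels. Intervals are 95% from the normal distribution.

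Named genes were the 6 members, the 5 genes nearest Npas4 and the 3 nearest any other member spanning at least 1 on the log2 scale, taken from genes whose mean normalized count was 50 or more, and at most 3 genes a list by smallest adjusted p under TTX or BIC in shCtrl. Nefl, Cx3cr1, Csf1r, Tmem119, Sox9, Aqp4, Slc1a3, Olig1, Flt1, Gad1, Gad2, Slc32a1, Lhx6, Dlx1, Rbfox3, Per2 and Cry1 were named after their values were seen. Of the 6 gene lists, Ahrr is in 2. The members, lists and tests were chosen with earlier results of these data known. The labels call the replicates biological, each from pooled embryos. Python 3.11.15, pandas 2.3.3 and scipy 1.17.1 were used.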

Additional observations from a re-analysis of the deposited data

How the results depend on the processing

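Over the 84 member results, 451 of 460 tested values under the alternatives kept their direction and their side of the threshold, 8 lost the call, 1 gained it and 0 reversed. The alternatives were other sets of genes in the adjustment, thresholds of 0.01 and 0.1, centring on the median gene and errors from the knockdown tables. Only centring altered a log2 change, by the same shift for every gene. The other alternatives left it as it was and could not reverse a direction, so the absence of reversals says little. Pooled FPKM ratios in shCtrl, which have no test, gave a further 24 values over pseudocounts of 0.1 and 1, of which 16 lay within the 95% interval of the fitted change, and 4 had the other sign: under TTX, Npas1 was at -0.0038 and -0.0028 (fitted 0.19) and Npas3 at 0.07 and 0.06 (fitted -0.09), neither called. The 8 values outside the interval were those of Arnt2 and Npas2 under both drugs. Under BIC at a pseudocount of 0.1, Arnt2 was at 0.32, beside an interval of 0.59 to 0.97. Npas2 was at 0.11 there, beside 0.23 to 0.71. Npas1, with a mean count under 50, has no value where genes under 50 are left out.

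At 0.01 the members called under BIC in shCtrl fell from 4 to 2, without Npas1 and Arnt, and Npas2 under TTX (shRai1 and averaged) and Npas1 in BIC against TTX (both arms) were also lost. At 0.1, Npas4 under BIC in shCtrl was gained, and its adjusted p ran from 0.0643 to 0.114 over the alternatives. For Npas2 under TTX in shRai1 it ran from 0.0346 to 0.0560.

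Counts over all genes moved by more than 1.5 times as follows. The knockdown in vehicle called 122 genes, 81 with adjustment over all genes, 35 at 0.01 and 204 at 0.1. The knockdown in TTX called 6 and at 0.01 called 2. The knockdown in BIC called 2, but 5 when adjusted over genes of at least 0.1 FPKM or a mean count of at least 50, 1 at 0.01 and 5 at 0.1. The TTX response difference called 172, 62 at 0.01 and 272 at 0.1, and the BIC difference 4 and 0. A stricter threshold passes fewer genes by construction.

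No paired analysis was possible because the tables give summaries over libraries with no value per replicate. Leaving out each replicate and the replicate block were therefore not run, and whether 1 library decides a value could not be examined. This bears most on shCtrl vehicle and shCtrl BIC, with 2 libraries each.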

Other observations

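The FPKM columns of the knockdown arm did not follow the comparison tables, and not only for the most activity-dependent members. By column name, the authors' pooled FPKM of Npas4 in the knockdown arm was 55.3 untreated, 1533 under TTX and 619 under BIC. By those names the log2 ratio to untreated was 4.79 for TTX and 3.48 for BIC, whereas the authors' deposited tables give -3.24 and 1.44 for the same arm. Arnt2 had 13.2 untreated, 24.1 under TTX and 17.6 under BIC, a log2 ratio of 0.87 for TTX against -0.66 in the authors' deposited table. Npas1 and Npas2 had ratios for TTX of -1.40 and 0.53 against 0.12 and -0.25 in the authors' deposited table. For BIC theirs were -0.38 and 0.13 against -0.98 and 0.42 in the authors' deposited table. Npas3 and Arnt had ratios for TTX of 0.14 and 0.03 against -0.14 and 0.29, and for BIC of -0.02 and -0.21 against 0.09 and 0.33, in the authors' deposited tables. Chosen after seeing these values, a reading with the names exchanged came closer: with the column named BIC as the denominator, Npas4 was at -3.48 in the column named untreated and 1.31 in the column named TTX, beside the deposited TTX and BIC changes of -3.24 and 1.44. Over the 6 genes and both drugs, 11 of 12 ratios then had the sign given in the authors' deposited tables, against 5 of 12 by name. The names were not reassigned here. In shCtrl the FPKM of Npas4 was 928 in vehicle, 50.0 under TTX and 1382 under BIC. Between arms in TTX, its log2 change was 0.04 in the authors' deposited table, where 0.0283% of tested genes were called. Beside these, the knockdown column named TTX held 1533 and the column named untreated held 55.3. Which condition each column holds was not tested further.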
